A study of Mus musculus with 18 samples.

Results

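The TCF/LEF factors and Wnt feedback targets were followed here as 10 genes, out of 55462 gene names that occur in at least 1 of 4 deposited expression tables. The nuclear factors were Lef1, Tcf7, Tcf7l1 and Tcf7l2, and the feedback targets were Axin2, Nkd1, Nkd2, Lgr5, Rnf43 and Znrf3. All 10 are protein-coding genes. A gene was found by its name, or by an entry of joined names that holds it, and each of the 10 had a single entry in every table.

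RNA of newborn mice (postnatal day 0) was sequenced in 18 libraries that fall into 4 comparisons of control with conditional knockout (cKO). Hippocampi of 3 controls were set against 3 Kdm2b cKO hippocampi, neurospheres of 2 controls against 2 Kdm2b cKO cultures, cortices of 2 controls against 2 Kdm2b cKO cortices, and hippocampi of 2 controls against 2 Rnf2 cKO hippocampi. The Kdm2b controls carried floxed Kdm2b on 1 or both alleles (Kdm2bfl/+ or Kdm2bfl/fl), and the cKO mice are Kdm2bEmx1-delta-CxxC, in which Emx1-Cre removes the exon for the CxxC zinc finger while the rest of the gene is kept. The Rnf2 controls were Rnf2fl/+ or Rnf2fl/fl, and the cKO was Rnf2Emx1-cKO. The labels do not say which control had which genotype, nor whether replicates came from separate animals or cultures, so the p values measure only the spread between these libraries. Emx1-Cre acts in the progenitors of the dorsal telencephalon and in the neurons and glia they produce, so vessels, meninges, blood and immigrant interneurons in a dissected tissue kept the intact gene. Neurospheres are floating cultures of hippocampal neural progenitors (labelled NPC), grown with FGF2 and EGF through several passages before RNA was taken.

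Wnt ligands let β-catenin enter the nucleus, where it binds TCF/LEF proteins on DNA. In the absence of β-catenin the same proteins sit with Groucho/TLE corepressors and hold targets down; Tcf7l1 is known mainly as a repressor, Lef1 mainly as an activator, and Tcf7 and Tcf7l2 occur in forms of both kinds. The feedback targets are induced by the pathway and act back on it: Axin2 rebuilds the complex that destroys β-catenin, Nkd1 and Nkd2 bind Dishevelled, Rnf43 and Znrf3 are ubiquitin ligases that remove Frizzled receptors, and Lgr5 is an R-spondin receptor that restrains these ligases. In the developing brain, Wnts from the cortical hem act on the hippocampal primordium, and Lef1 is needed for the dentate gyrus. Kdm2b brings a variant Polycomb complex, in which Rnf2 is the ubiquitin ligase for histone H2A, to unmethylated CpG islands through its CxxC zinc finger.

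Because that zinc finger binds DNA at CpG, stretches of upstream sequence are shown for 4 genes whose levels the results turn on. Each is the 250 bases before a RefSeq transcript start (GRCm38.p6), 5′ to 3′ on the strand of the gene, with every CpG in capitals: Lef1 on chr3:131110073-131110322 (plus strand, ending 148 bases before the deposited gene start), Tcf7l2 on chr19:55741560-55741809 (plus strand), Axin2 on chr11:108920099-108920348 (plus strand) and Nkd2 on chr13:73847632-73847881 (minus strand).
Lef1: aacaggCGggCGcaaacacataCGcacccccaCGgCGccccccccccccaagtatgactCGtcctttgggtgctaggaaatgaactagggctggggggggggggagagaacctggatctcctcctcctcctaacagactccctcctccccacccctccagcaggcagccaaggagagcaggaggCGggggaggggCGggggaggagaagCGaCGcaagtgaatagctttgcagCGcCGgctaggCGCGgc
Tcf7l2: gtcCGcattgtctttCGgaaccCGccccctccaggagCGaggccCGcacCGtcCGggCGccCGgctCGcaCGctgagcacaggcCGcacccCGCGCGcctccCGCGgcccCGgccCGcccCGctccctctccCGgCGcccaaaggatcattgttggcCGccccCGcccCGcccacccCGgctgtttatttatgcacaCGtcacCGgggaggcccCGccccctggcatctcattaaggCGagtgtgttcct
Axin2: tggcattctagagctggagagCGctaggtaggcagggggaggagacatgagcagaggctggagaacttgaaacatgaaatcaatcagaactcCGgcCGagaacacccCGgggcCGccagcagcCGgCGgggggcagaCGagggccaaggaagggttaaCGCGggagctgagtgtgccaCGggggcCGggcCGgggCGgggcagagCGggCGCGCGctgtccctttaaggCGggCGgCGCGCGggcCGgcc
Nkd2: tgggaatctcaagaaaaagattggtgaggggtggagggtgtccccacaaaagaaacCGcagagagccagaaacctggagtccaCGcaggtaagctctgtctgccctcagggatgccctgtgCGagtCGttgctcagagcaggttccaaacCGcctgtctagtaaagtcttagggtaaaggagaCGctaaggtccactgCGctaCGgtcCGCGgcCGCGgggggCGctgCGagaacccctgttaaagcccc
The Lef1 stretch held 14 CpG, that of Tcf7l2 30, that of Axin2 24 and that of Nkd2 14, against a median of 6 over 32817 such stretches of mouse genes. RefSeq stretches were found for 8 of the 10 genes, and 7 of the 8 had more CpG than the median. Tcf7 had the most, with 37, and Tcf7l1 had 29, while Rnf43 had 8 and Nkd1 had 6. The Nkd1 stretch lies 6279 bases from the deposited gene start, inside the gene. The Rnf43 stretch also lies inside its gene, ending 365 bases from the deposited start. That of Tcf7l1 begins upstream of the deposited start and ends 209 bases inside the gene. The Tcf7 stretch lies directly before the deposited gene, yet holds an ATG with no stop codon in that frame up to its end. Whether those bases are coding was not tested. The CpG counts are thus not all of sequence upstream of a whole gene. The letters CTTTG, the core of the TCF/LEF motif, occurred on either strand in 3 of the 8 stretches (Lef1, Tcf7l1 and Tcf7l2) and in 48.6% of all stretches. A fuller motif of 7 letters (CTTTG followed by 2 letters that are each A or T, on either strand, and so always inside a CTTTG match) occurred in 0 of the 8 and in 14.8% of all stretches. These are counts of letters in 250 bases and say nothing of binding, here or farther away.

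Levels are in FPKM, a measure that divides the fragments of a gene by its length and by the size of the library, so they can be compared between genes within a table. The 4 tables were made separately, and levels are not compared between them with a test. Fold changes are differences of log2(FPKM + 1), on which low genes appear to change less than they do in FPKM. Genes whose mean over all libraries of a table reached 0.5 FPKM were tested with limma. A gene low in 1 group could thus pass through the other group. A gene counts as called when its log2 fold change passed 0.4 in either direction with p below 0.05 before adjustment, and the Benjamini-Hochberg adjusted p over all genes of the table is given beside it. The number of reads behind a value could not be recovered from the tables of the Kdm2b hippocampi and neurospheres, whereas the cortical and Rnf2 values give back whole reads, 18480515 to 21905224 reads on genes per cortical library and 14654894 to 16334420 reads per Rnf2 library.

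Tissue markers went with the labels: the summed level of 5 hippocampal markers was 204 to 233 FPKM in the Kdm2b and 92.2 to 134 FPKM in the Rnf2 hippocampi, that of 6 neocortical markers 224 to 266 FPKM in the cortices, and that of 6 progenitor markers 3704 to 6992 FPKM in the neurospheres, and none of these lists had a member at 0. Control neurosphere library 1 stood apart, with 29.3% of its FPKM in entries that name no gene against at most 1.95% in the other neurosphere libraries. Whole-gene levels do not report the deletion of an exon: Kdm2b was 29.4 ± 2.15 FPKM (SD, n = 3) in control and 27.2 ± 0.992 FPKM in cKO hippocampi (adjusted p = 0.364). Rnf2 was 31.5 ± 1.02 FPKM (SD, n = 2) in control and 28.1 ± 0.494 FPKM in Rnf2 cKO hippocampi (adjusted p = 0.762), so its level does not show the deletion either.

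**Figure D1:**
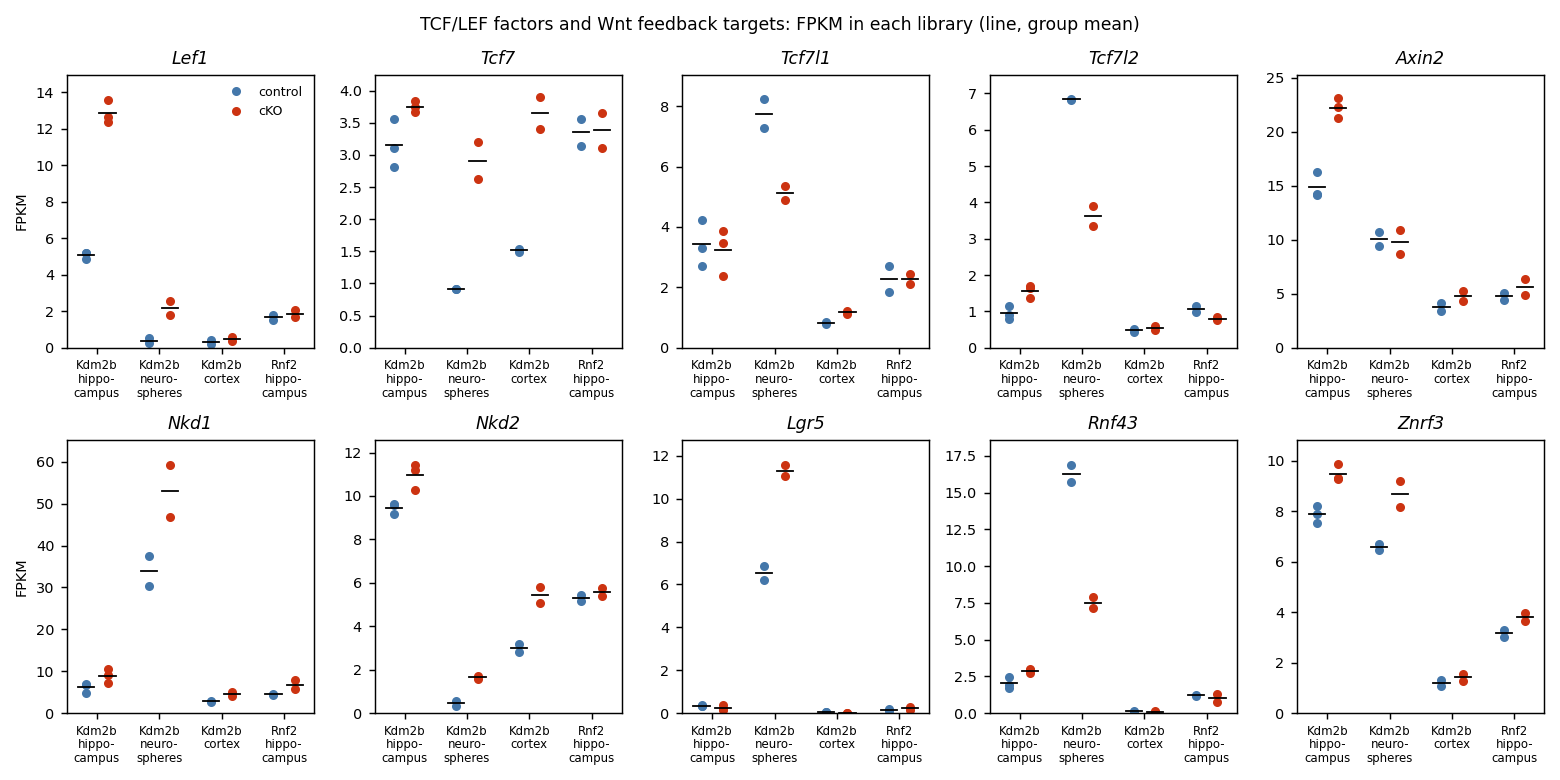
FPKM (y axis, linear, from 0) of each of the 10 genes in each of the 18 libraries, with control libraries in blue, cKO libraries in red and group means as lines. Lef1 rose in Kdm2b hippocampi from a mean of 5.07 to 12.9 FPKM, and Rnf43 fell in neurospheres from 16.3 to 7.50 FPKM. The 4 tables were normalized separately.

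In the Kdm2b hippocampi, 4 of the 10 genes were called higher and none lower: Lef1 and Tcf7l2 among the nuclear factors, and Axin2 and Nkd1 among the feedback targets. The background was 6.14% of 13446 genes called in either direction, 3.89% higher and 2.25% lower. With adjusted p values Lef1 and Axin2 were called, against 4.41% of all genes. For 8 of the 10 genes every cKO library exceeded every control, where 29.2% of tested genes had groups that did not overlap in either direction. The exceptions were Tcf7l1 and Lgr5. Axin2, Rnf43 and Znrf3 were measured there in joined entries.

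Positions are given as the cortical and Rnf2 tables list them (mm10). Lef1 (chr3:131110471-131224356, plus strand) showed the largest change of the 10 in these hippocampi. It was at 5.17, 4.88 and 5.18 FPKM in the controls and at 12.4, 13.6 and 12.6 FPKM in the cKO libraries. All cKO values lay far above the highest control, and the log2 fold change was 1.19 (SE 0.0727, 95% interval 1.03 to 1.35, adjusted p = 7.2e-05). Leaving out any 1 library kept it between 1.15 and 1.22.

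The other nuclear factors moved less. Tcf7l2 (chr19:55741810-55933654, plus strand) was at 1.15, 0.793 and 0.909 FPKM in controls and at 1.70, 1.65 and 1.38 FPKM in cKO libraries. It rose by 0.40 on the log2 scale (SE 0.119, adjusted p = 0.0716), just past the fold change threshold. That call was lost without control replicate 2 (0.34), control replicate 3 (0.39), cKO replicate 1 (0.37) or cKO replicate 2 (0.38), and with median-ratio scaling (0.398). Tcf7l2 is also a known thalamic gene, and the summed level of 6 thalamic markers was 115 to 128 FPKM in controls and 134 to 143 FPKM in cKO libraries, with 0 of the 5 tested called by limma and 0 of 6 at 0 in any library; their part in the result was not tested. Tcf7 was at 3.55, 2.82 and 3.11 FPKM in controls and 3.74, 3.83 and 3.68 FPKM in cKO libraries, a log2 difference of 0.20 (95% interval -0.03 to 0.42, adjusted p = 0.281). Tcf7l1 (chr6:72626378-72789254, minus strand) overlapped, at 3.30, 2.71 and 4.24 FPKM in controls and 3.85, 3.47 and 2.37 FPKM in cKO libraries, with a log2 difference of -0.07 (95% interval -0.44 to 0.31).

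Among the feedback targets, Axin2 (chr11:108920349-108950783, plus strand) carried the clearest change. The hippocampal table gives it in 1 entry together with Cep112, a centrosomal gene that ends 59.7 kb upstream of Axin2 on the same strand (GENCODE vM21, GRCm38). That entry was at 14.2, 14.2 and 16.3 FPKM in controls and at 21.3, 23.1 and 22.3 FPKM in cKO libraries, and it rose by 0.55 on the log2 scale (SE 0.0691, adjusted p = 0.00327). In the tables that list the genes apart, Cep112 was lower than Axin2, at 0.471 against 10.04 FPKM in control neurospheres and at 1.96 against 4.75 FPKM in the controls of the Rnf2 table. How much of the joined entry is Axin2 cannot be told from it. Nkd1 (chr8:88521354-88594884, plus strand) was at 7.04, 4.77 and 6.78 FPKM in controls and at 9.20, 10.4 and 7.10 FPKM in cKO libraries, so cKO replicate 3 lay just above control replicate 1. Its log2 fold change was 0.46 (SE 0.155, adjusted p = 0.107), and the call was lost without control replicate 2 (0.31) or cKO replicate 2 (0.35).

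The remaining feedback targets shifted by less than the threshold or were too low to test. Rnf43 (chr11:87662722-87735539, plus strand), in an entry joined with a noncoding gene inside it (1110028F11Rik), was at 1.70, 2.48 and 1.88 FPKM in controls and 2.98, 2.70 and 2.93 FPKM in cKO libraries, a log2 difference of 0.36 (adjusted p = 0.0977). Without control replicate 2 it was 0.47 and passed the threshold. Znrf3 (chr11:5276324-5444847, minus strand), in an entry joined with Kremen1, a Dickkopf receptor whose gene lies 14.8 kb away on the same strand, was at 7.87, 7.55 and 8.20 FPKM in controls and 9.26, 9.87 and 9.30 FPKM in cKO libraries, a log2 difference of 0.24 (adjusted p = 0.0707). Listed apart, Kremen1 was at 9.83 FPKM and Znrf3 at 6.57 FPKM in control neurospheres. In control cortices they were at 1.79 and 1.18 FPKM, and in the Rnf2 controls at 2.02 and 3.16 FPKM. Kremen1 rose in cKO neurospheres (log2 fold change 0.86, limma adjusted p = 0.00383). How much of the joined entry is Znrf3 cannot be told from it. Nkd2 (chr13:73818534-73847631, minus strand) was at 9.17, 9.62 and 9.58 FPKM in controls and 11.4, 10.3 and 11.2 FPKM in cKO libraries, a log2 difference of 0.19 (adjusted p = 0.129). For the entries of Rnf43, Znrf3 and Nkd2 the groups did not overlap, and the intervals lay above 0 while the calls required more than 0.4. Lgr5 (chr10:115450311-115587780, minus strand) was below the filter, at 0.325, 0.373 and 0.339 FPKM in controls and 0.198, 0.121 and 0.380 FPKM in cKO libraries, which overlapped.

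The order of levels changed with genotype in 1 place that exceeds the spread. In control hippocampi the mean levels ran Axin2, Nkd2, Znrf3, Nkd1, Lef1, Tcf7l1, Tcf7, Rnf43, Tcf7l2 and Lgr5, and the neighbours Nkd1 and Lef1, and Tcf7l1 and Tcf7, overlapped. In cKO hippocampi Lef1 stood second, above Nkd2, with no overlap of its libraries with those of either neighbour.

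Cell type markers moved in the same libraries. All 3 tested of 4 intermediate progenitor markers were called higher, with a summed level of 27.6 to 32.1 FPKM in controls and 66.2 to 77.5 FPKM in cKO libraries; Neurog1 was at 0 in control replicates 1 and 3. Of 6 neural progenitor markers 3 were called higher, also with adjusted p: Pax6 (0.83), Nes (0.52) and Vim (0.50). The median of the 6 was 0.41, while their summed level was 973 to 1058 FPKM in controls and 980 to 1109 FPKM in cKO libraries, with none at 0. The 5 neuronal markers summed to 475 to 496 FPKM in controls and 387 to 424 FPKM in cKO libraries, with 1 called lower. The 5 choroid plexus markers summed to 4.97 to 15.8 FPKM in controls and to 59.2, 39.9 and 6.59 FPKM in the cKO libraries, with 1 marker at 0 in the last. Of the 3 choroid plexus markers tested, 2 were called higher, 0 of them with adjusted p. The 7 oligodendrocyte lineage markers summed to 61.5 to 63.2 FPKM in controls and 52.0 to 54.8 FPKM in cKO libraries, with 0 of the 6 tested called by limma. The part of these cell types in the results was not tested, and in dissected tissue more cells of a type and more RNA per cell cannot be told apart.

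**Figure D2:**
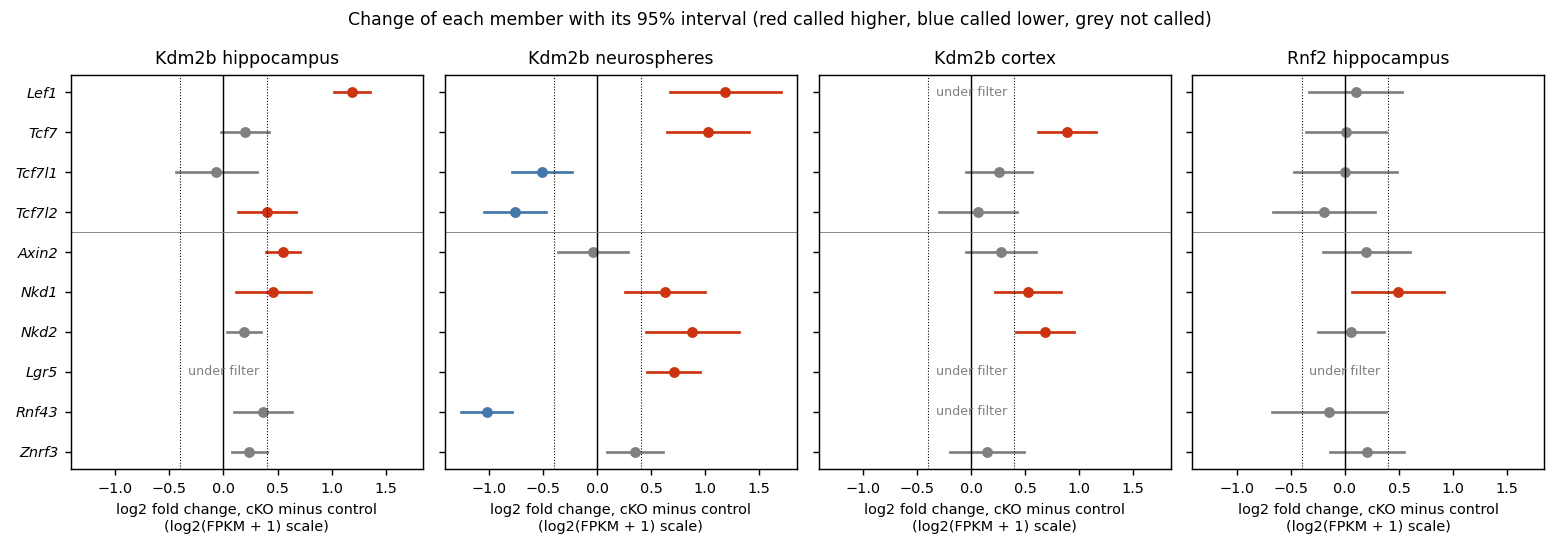
Log2 fold change of cKO against control on the log2(FPKM + 1) scale (x axis) for each gene (y axis) in the 4 comparisons, with 95% limma intervals; red and blue mark genes called higher and lower, grey those not called, dotted lines the threshold of 0.4, and genes under 0.5 FPKM are marked. Lef1 rose by 1.19 in hippocampi and in neurospheres, and Rnf43 fell by 1.02 in neurospheres.

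In neurospheres, 8 of the 10 genes were called, 5 higher and 3 lower, against a background of 24.6% of 12227 genes, 11.4% higher and 13.2% lower. Lef1 and Nkd2, both called higher, had control means of 0.393 and 0.439 FPKM, under the filter. They passed it only through the cKO cultures. All 8 also had an adjusted p under 0.05, which 19.3% of genes had together with the fold change. The groups did not overlap for 9 of the 10 genes and for 66.4% of all tested genes. Within the nuclear factors the changes ran in opposite directions: Lef1 and Tcf7 rose while Tcf7l1 and Tcf7l2 fell.

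Lef1 was low in the control cultures, at 0.541 and 0.244 FPKM, and stood at 1.81 and 2.54 FPKM in the cKO cultures. The log2 fold change was 1.19 (SE 0.207, adjusted p = 0.0136), and the ratio of the mean FPKM was 5.53, against 2.54 in the hippocampi, since the pseudocount shrinks low values more. Tcf7 was at 0.919 and 0.916 FPKM in controls and at 2.63 and 3.20 FPKM in cKO cultures, a rise of 1.03 on the log2 scale (SE 0.154, adjusted p = 0.00867). Both genes were thus higher in 2 of 2 cKO cultures, and the groups did not overlap. Tcf7l1 fell from 8.24 and 7.26 FPKM to 5.35 and 4.89 FPKM (log2 fold change -0.51, SE 0.113, adjusted p = 0.0278). Tcf7l2 fell from 6.84 and 6.83 FPKM to 3.89 and 3.36 FPKM (log2 fold change -0.76, SE 0.115, adjusted p = 0.00873). When libraries were rescaled to the same FPKM total, which moved the median of all genes by 0.11, the fall of Tcf7l1 was -0.41 and no longer called, and the split of all calls went from 46.2% to 60.2% higher.

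Feedback targets in neurospheres did not follow 1 direction. Nkd1 was the most abundant of the 10 genes, at 37.5 and 30.4 FPKM in controls and 46.7 and 59.3 FPKM in cKO cultures, a rise of 0.63 (SE 0.152, adjusted p = 0.0361) that was not called without control replicate 2 (0.48). Nkd2, which the control cultures held at 0.532 and 0.345 FPKM, was at 1.70 and 1.58 FPKM in the cKO cultures (log2 fold change 0.88, SE 0.174, adjusted p = 0.0201). Lgr5, too low to test in any tissue, was at 6.86 and 6.23 FPKM in control cultures and rose to 11.6 and 11.05 FPKM (log2 fold change 0.71, SE 0.0985, adjusted p = 0.00704). All 3 were higher in both cKO cultures. Rnf43 went the other way, from 16.9 and 15.7 FPKM to 7.87 and 7.14 FPKM, with a log2 fold change of -1.02 (SE 0.0969, adjusted p = 0.00241). Znrf3, which encodes the related ligase, was at 6.45 and 6.70 FPKM in controls and 9.19 and 8.15 FPKM in cKO cultures, a log2 difference of 0.35 that missed the threshold (adjusted p = 0.0624) and passed it without cKO replicate 2 (0.43). The partners joined to Rnf43 and Znrf3 in the hippocampal table were listed apart here, so these values are those of the genes alone. Axin2, alone in its entry as well, was at 10.7 and 9.39 FPKM in controls and 8.67 and 10.9 FPKM in cKO cultures; the groups overlapped, and the log2 difference was -0.04 (95% interval -0.37 to 0.29).

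Leaving out control replicate 1, the library with many unnamed entries, leaves a single control. The 8 genes called with all libraries then kept their direction, with log2 fold changes from -0.98 for Rnf43 to 1.34 for Lef1. In the remaining control, Lef1 and Nkd2 were at 0.244 and 0.345 FPKM, under the filter of 0.5 FPKM.

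The order of levels in control cultures began with Nkd1, Rnf43 and Axin2 and ended with Tcf7, Nkd2 and Lef1. In cKO cultures Lgr5 stood second, and Rnf43 came after Axin2 and Znrf3, whose libraries overlapped each other. Markers of glial lineages differed between the same cultures: 5 of 7 oligodendrocyte lineage markers and 4 of 5 astrocyte markers were called lower, while 2 of 6 progenitor markers were called higher and 1 lower. The summed oligodendrocyte lineage level, most of it Olig1 and Olig2, which were not called, was 2414 to 2484 FPKM in controls and 2427 to 2488 FPKM in cKO cultures. The summed astrocyte level was 633 to 634 FPKM in controls and 393 to 426 FPKM in cKO cultures, and the summed progenitor level 3704 to 4120 and 5134 to 6992 FPKM, with none of these markers at 0. The 4 intermediate progenitor markers summed to 54.1 to 55.7 FPKM in controls and 16.8 to 21.4 FPKM in cKO cultures; most of it was Btg2, the 1 called lower of 2 tested, and Neurog1 was at 0 in both controls and in cKO replicate 2. Their part in the results was not tested.

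**Figure D3:**
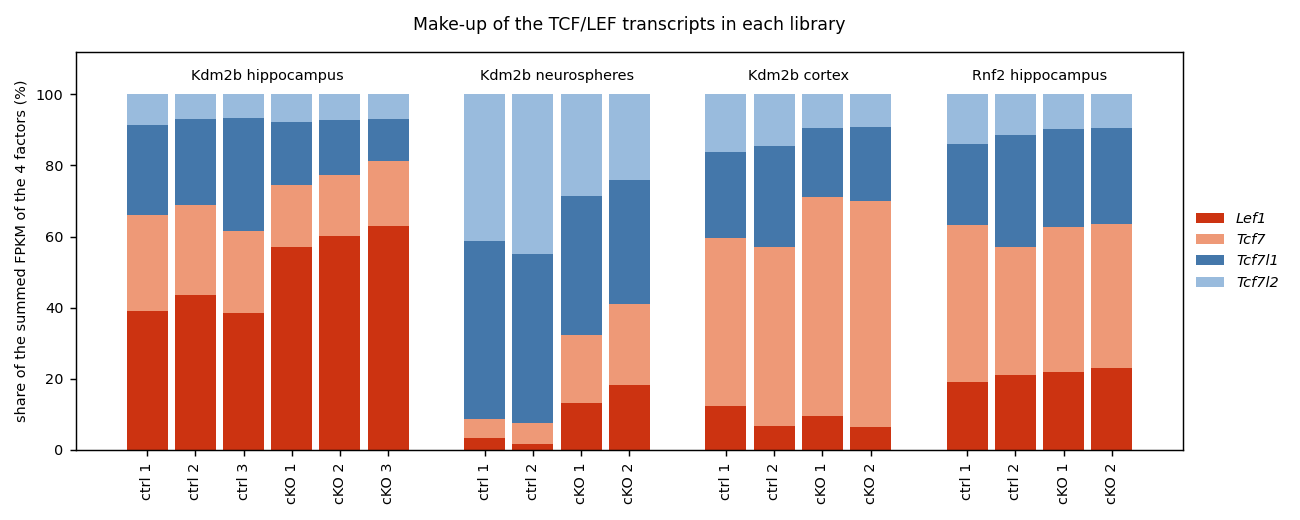
Share of Lef1, Tcf7, Tcf7l1 and Tcf7l2 in the summed FPKM of the 4 factors (y axis, percent) in each library (x axis), as stacked bars grouped by comparison. Lef1 and Tcf7 together (red shades) took 7.61% to 8.82% in control neurospheres and 32.4% to 41.0% in cKO neurospheres.

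Given as shares of the 4 factors, the make-up of the TCF/LEF transcripts shifted in each Kdm2b table, as the plot of factor shares shows. Shares of 1 sum are tied to each other, so a rise of 1 factor lowers the shares of the others. In hippocampi, Lef1 made up 40.4% ± 2.74 (SD, n = 3) of the summed FPKM in controls and 60.1% ± 2.92 in cKO libraries. The share of Tcf7l1 went from 26.9% ± 4.05 to 15.0% ± 2.99. Its level overlapped between groups (means 3.42 and 3.23 FPKM), so that share fell with the larger sum, in which Lef1 went from 5.07 to 12.9 FPKM. Lef1 and Tcf7 together took 61.6% to 68.7% of it in control hippocampi and 74.4% to 81.3% in cKO hippocampi, so the groups did not overlap. In neurospheres the 2 factors took 7.61% and 8.82% in controls and 32.4% and 41.0% in cKO cultures. The summed level of the 4 factors was 15.2 to 16.5 FPKM in control and 13.7 to 14.0 FPKM in cKO cultures, whereas in hippocampi it went from 11.2 to 13.4 FPKM up to 20.0 to 22.5 FPKM. In cortices Lef1 and Tcf7 took 57.1% and 59.7% in controls and 69.9% and 71.2% in cKO libraries, most of it Tcf7. In the Rnf2 table the shares were 57.2% and 63.1% in controls and 62.6% and 63.6% in cKO libraries, which overlapped.

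In the cortices, 3 of the 10 genes were called higher and none lower, against 7.01% of 15691 genes called, 4.73% higher and 2.28% lower. With adjusted p values limma called 0 of the 10 and 0.427% of all genes, and 3 of the 10 had an unadjusted p under 0.05. The groups did not overlap for 6 of the 10 genes and for 44.8% of all tested genes. Among the 6 was Lgr5, which was lower in cKO cortices, under the filter and not tested. Tcf7 (chr11:52252371-52283014, minus strand) was at 1.54 and 1.49 FPKM in controls, from 89 and 83 reads, and at 3.90 and 3.40 FPKM in cKO cortices, from 201 and 167 reads. It rose by 0.89 on the log2 scale (SE 0.104, 95% interval 0.62 to 1.15, adjusted p = 0.0648) and was higher in 2 of 2 cKO libraries. Nkd2 went from 3.20 and 2.82 FPKM to 5.82 and 5.08 FPKM (log2 fold change 0.69, SE 0.105, adjusted p = 0.1). Nkd1 went from 2.70 and 2.86 FPKM to 4.96 and 3.97 FPKM (log2 fold change 0.53, SE 0.119, adjusted p = 0.19), and was not called without cKO replicate 1 (0.39).

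The other cortical values were low or within the spread. Axin2 was at 4.11 and 3.43 FPKM in controls and 5.23 and 4.32 FPKM in cKO cortices, which did not overlap, with a log2 difference of 0.28 (95% interval -0.05 to 0.60, adjusted p = 0.46). Tcf7l1 was at 0.786 and 0.839 FPKM in controls and 1.22 and 1.12 FPKM in cKO cortices, a log2 difference of 0.26 that limma did not call on FPKM and did call on the recovered reads (0.53). Tcf7l2 (0.478 ± 0.0663 and 0.545 ± 0.0698 FPKM, SD, n = 2) and Znrf3 (1.18 ± 0.162 and 1.41 ± 0.217 FPKM) overlapped between groups. Lef1 fell below the filter, with 78 and 38 reads in controls and 103 and 58 reads in cKO libraries, that is 0.403 and 0.203 against 0.597 and 0.353 FPKM. Rnf43 had 18 and 12 reads in controls and 19 and 6 in cKO libraries, and Lgr5 had 8 and 6 against 4 and 1. The groups overlapped for Lef1 and Rnf43, and none of the 3 genes passed the filter.

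Markers of tissue around the brain moved with genotype in the cortices. All 5 meningeal markers were called higher, with a summed level of 1.17 and 1.80 FPKM in controls and 24.3 and 16.3 FPKM in cKO libraries. Dcn, Lum and Col1a1 among them were under 0.5 FPKM in both controls and passed the filter only through the cKO libraries. The 4 vessel markers summed to 30.8 to 31.4 FPKM in controls and 50.2 to 50.4 FPKM in cKO libraries, with 2 called higher, and 3 of 4 blood markers were called higher (413 to 444 and 606 to 681 FPKM). None of the meningeal, vessel or blood markers was at 0, and these cells are not of the Emx1-Cre lineage. Other marker lists moved as well. The 5 hippocampal markers summed to 21.3 and 13.7 FPKM in controls and 13.2 and 12.9 FPKM in cKO libraries, with 1 called lower. The 5 striatal markers summed to 22.6 and 25.1 FPKM in controls and 32.6 and 37.9 FPKM in cKO libraries, with 1 called higher. The 4 intermediate progenitor markers summed to 123 FPKM in both controls and to 156 and 136 FPKM in cKO libraries, with 1 called higher. Of the 6 neural progenitor markers 1 was called higher, with summed levels that overlapped (444 to 564 and 548 to 582 FPKM). The 5 astrocyte markers summed to 18.3 to 20.3 FPKM in controls and 23.2 to 24.8 FPKM in cKO libraries, with 1 of 3 tested called higher. The 7 oligodendrocyte lineage markers summed to 12.3 to 13.04 and 13.8 to 14.9 FPKM, with 1 of 5 tested called higher. The part of these cell types and tissues in the rise of Tcf7, Nkd1 and Nkd2 was not tested.

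In the Rnf2 hippocampi, 1 of the 10 genes, Nkd1, was called higher and none lower, against 4.71% of 15764 genes called, 2.86% higher and 1.85% lower. With adjusted p values limma called 0 of the 10 and 0% of all genes, and 1 of the 10 had an unadjusted p under 0.05. Nkd1 was at 4.59 and 4.34 FPKM in controls (313 and 308 reads) and at 5.68 and 7.84 FPKM in cKO libraries (428 and 578 reads), a log2 difference of 0.49 (SE 0.170, adjusted p = 0.679). The call was lost without control replicate 1 (0.52), control replicate 2 (0.46) or cKO replicate 2 (0.29). The groups did not overlap for 3 of the 10 genes, Nkd1, Znrf3 and Tcf7l2, and for 38.3% of all tested genes.

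Lef1, the gene with the largest change in Kdm2b hippocampi, was at 1.54 and 1.81 FPKM in the controls of the Rnf2 table and at 1.67 and 2.07 FPKM in the cKO libraries, a log2 difference of 0.10 (95% interval -0.33 to 0.53). Axin2, listed alone in this table, was at 4.41 and 5.10 FPKM in controls and 4.89 and 6.35 FPKM in cKO libraries, a log2 difference of 0.20 (95% interval -0.21 to 0.60). Both pairs overlapped, and neither interval excludes a modest rise. Tcf7 and Tcf7l1 differed by 0.01 and 0.0034 on the log2 scale, Tcf7l2 by -0.20, Nkd2 by 0.06, Rnf43 by -0.15 and Znrf3 by 0.20, all with intervals that include 0. Lgr5 was below the filter, with 16 and 27 reads in controls and 50 and 27 in cKO libraries. Choroid plexus markers summed to 49.96 and 12.4 FPKM in controls and to 239 and 7.43 FPKM in cKO libraries, and 3 of 5 meningeal markers were called lower (27.3 FPKM in both controls against 12.6 and 19.6 FPKM); their part in the values was not tested.

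**Figure D4:**
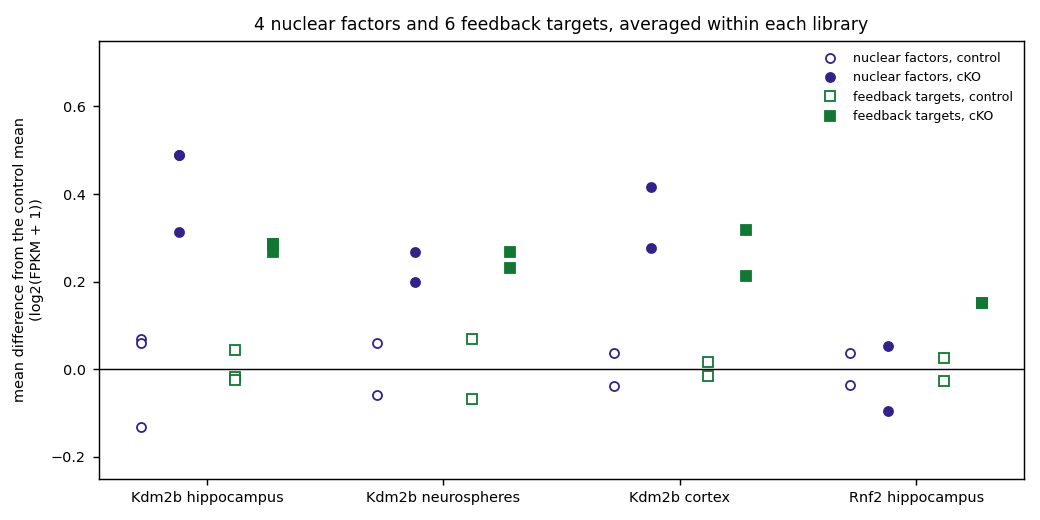
Mean over the 4 nuclear factors (blue circles) and the 6 feedback targets (green squares) of the difference from the control mean on the log2(FPKM + 1) scale (y axis), for each control (open) and cKO (filled) library in the 4 comparisons (x axis). In the Kdm2b tables all cKO libraries lay above the controls for both groups of genes, from 0.20 to 0.49 for nuclear factors and from 0.21 to 0.32 for feedback targets.

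The feedback targets are the usual readout of pathway activity, so their average was set beside that of the nuclear factors, with no test. Averaged over all 6 feedback targets, filtered or not, the cKO libraries stood 0.27 to 0.29 above the control mean in hippocampi, 0.23 to 0.27 in neurospheres, 0.21 to 0.32 in cortices and 0.15 in both Rnf2 cKO libraries. The 4 nuclear factors averaged 0.31 to 0.49 in hippocampi, 0.20 to 0.27 in neurospheres, 0.28 to 0.42 in cortices, and -0.10 and 0.05 in the Rnf2 cKO libraries. Axin2, Rnf43 and Znrf3 entered the hippocampal average as joined entries. The like averages hide unlike members. Among the nuclear factors in hippocampi, Lef1 rose by 1.19, against 0.20 for Tcf7, -0.07 for Tcf7l1 and 0.40 for Tcf7l2. In cortices Tcf7 rose by 0.89, against 0.26 for Tcf7l1 and 0.06 for Tcf7l2, with Lef1 under the filter. The median log2 difference of the 4 factors was 0.30 in hippocampi and 0.22 in cortices. In hippocampi 5 of 6 feedback targets had a positive mean difference, while in neurospheres 4 of 6 did, and the nuclear factors split into 2 rises and 2 falls. Nkd1 was the single member called higher in all 4 comparisons, and Znrf3 was called in none. Lef1, Tcf7 and Nkd2 were each called higher in 2. How many of all genes were called in 2 or in 4 comparisons was not counted. The adjusted p of Nkd1 (limma) was 0.107 in hippocampi, 0.0361 in neurospheres, 0.19 in cortices and 0.679 in Rnf2 hippocampi. In each comparison, leaving out some single library lost the Nkd1 call. In neurospheres Lef1 and Nkd2 passed the filter only through the cKO cultures. Tcf7l2 was called higher in hippocampi and lower in neurospheres.

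Whether a change differed between tables was tested with an interaction term for table and genotype, each time against the Kdm2b hippocampi, whose 6 libraries the 3 tests share. Between neurospheres and hippocampi 5 of the 10 genes differed at an adjusted p under 0.05, against 26.9% of 11078 genes. Rnf43 differed most (difference of log2 fold changes -1.39, 95% interval -1.75 to -1.03, adjusted p = 0.000198), followed by Tcf7l2 (-1.16, 95% interval -1.54 to -0.79, adjusted p = 0.000694). Tcf7 (0.83, adjusted p = 0.00355) and Nkd2 (0.69, adjusted p = 0.00393) rose more in neurospheres. Nkd2 was at 0.439 FPKM in control cultures, under the filter, and entered this test only through the cKO cultures, as did Lef1. Axin2 differed by -0.59 (adjusted p = 0.0111), which was not called without neurosphere control replicate 1 (-0.51) or after rescaling libraries to 1 total (-0.50). For Rnf43 and Axin2 the hippocampal side of this test is a joined entry. Lef1 did not differ on this scale (difference -0.0048, 95% interval -0.39 to 0.38), and with a pseudocount of 0.1 in place of 1 the difference was 0.93 (adjusted p = 0.0565).

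Against cortices, Tcf7 differed (0.69, 95% interval 0.38 to 1.00, adjusted p = 0.0367), where 1.61% of 10710 genes did. That call was lost without the filter (0.69), after rescaling libraries to 1 FPKM total (0.64), in a fit with a replicate block (0.69, where the adjusted p rose to 0.112), and in 8 of 10 fits that left out a library, with differences of 0.61 to 0.77 over the 10. Nkd2 differed by 0.49 (adjusted p = 0.0693) and passed without cortical control replicate 1 (0.56). Against Rnf2 hippocampi, Lef1 differed (-1.09, 95% interval -1.41 to -0.77, adjusted p = 0.00878), where 0.683% of 11269 genes did, and was not called without Rnf2 cKO replicate 1 (-0.99). The Rnf2 and Kdm2b hippocampi come from separately made tables as well as from deletions of different genes, which cannot be told apart. The cortical and neurosphere tables were also made separately from the hippocampal one. Table and tissue or culture cannot be told apart in those tests either. The difference for Axin2 was -0.35 (95% interval -0.69 to -0.02, adjusted p = 0.298).

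The rest of the pathway was described from lists of known components, to be read against the shares of all genes called, 6.14% in hippocampi, 24.6% in neurospheres, 7.01% in cortices and 4.71% in Rnf2 hippocampi. Of 19 genes of the β-catenin destruction complex and its transducers, none was called by limma in hippocampi or cortices (5 and 1 had an unadjusted p under 0.05), 1 in neurospheres and 1 in Rnf2 hippocampi, and the median log2 fold changes were 0.03 in hippocampi, 0.11 in neurospheres, -0.06 in cortices and 0.12 in Rnf2 hippocampi. The medians of all tested genes lay between -0.01 and 0.01. The neurosphere gene was Lrp5, a Wnt co-receptor, which went from 3.43 ± 0.0514 to 7.61 ± 0.478 FPKM (SD, n = 2, log2 fold change 0.96, adjusted p = 0.00383). The Rnf2 gene was Frat2, a GSK3 inhibitor (log2 fold change 0.42, adjusted p = 0.674). Ctnnb1, the gene of β-catenin and a member of this list, listed in hippocampi together with Mir7090, was at 338 ± 3.27 FPKM in control and 350.02 ± 5.12 FPKM in cKO hippocampi (SD, n = 3, log2 difference 0.05). It was chosen after its values were seen.

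Of 18 coregulators of TCF and β-catenin, with medians of 0.01, 0.05, -0.01 and 0.07 in the same order, none of the 17 tested was called by limma in hippocampi (3 had an unadjusted p under 0.05), 1 was called higher and 2 lower in neurospheres, 1 each way in cortices and 1 higher in Rnf2 hippocampi. In neurospheres Tle3, a Groucho-type corepressor, rose from 13.9 ± 0.384 to 22.8 ± 0.609 FPKM (log2 fold change 0.68, adjusted p = 0.00469), and Tcf4, an E-box factor that is not a member of the TCF/LEF family despite its name, fell from 149.96 ± 5.18 to 102.9 ± 9.71 FPKM (log2 fold change -0.54, adjusted p = 0.0171). The other coregulator called lower was Tle4 (-0.42), also a corepressor, named after its value was seen. In cortices Hic1, a repressor that sequesters TCF factors, was called higher (0.54, adjusted p = 0.31) and Tle2 lower (-0.48, adjusted p = 0.124). In Rnf2 hippocampi Tle5, listed under its older name Aes, was called higher (0.43, adjusted p = 0.571).

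Of 26 further genes reported as Wnt targets, 19 were tested in hippocampi, where 5 were called higher and 1 lower (median 0.14), beside 3.89% and 2.25% of all genes. The largest rise was that of Notum, a secreted enzyme that inactivates Wnts, from 2.86 ± 0.247 to 6.35 ± 1.02 FPKM (SD, n = 3, log2 fold change 0.92, adjusted p = 0.00356). Sox9 (0.68), Sp5 (0.65), Msx1 (0.62) and Tnfrsf19 (0.48), all named after their values were seen, were the others called higher. Cd44, a hyaluronan receptor, fell from 1.61 ± 0.176 to 0.969 ± 0.218 FPKM (-0.41, adjusted p = 0.0746). In neurospheres 6 of 18 tested were called higher and 6 lower (median -0.14), beside 11.4% and 13.2% of all genes, again with Notum (1.31, adjusted p = 0.00711) and Cd44 (-1.25, adjusted p = 0.005) at the ends. Notum was at 0.430 FPKM in control cultures, under the filter, and passed it only through the cKO cultures (2.54 FPKM). In cortices 4 of 14 tested were called higher and none lower (median 0.26), beside 4.73% and 2.28% of all genes, led by Msx1, a homeobox gene (1.00, adjusted p = 0.173). Msx1 was at 0.141 FPKM in control cortices, under the filter, and passed it only through the cKO libraries (1.31 FPKM). The other 3 called higher were Ccnd1 (0.73), Neurog1 (0.61) and Apcdd1 (0.42), named after their values were seen. Neurog1 is also on the list of intermediate progenitor markers, where it was the 1 called higher in cortices. In Rnf2 hippocampi limma called 0 of 18 (median 0.03), and 1 had an unadjusted p under 0.05.

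Genes whose pattern was closest to Axin2 were found by Pearson's r over deviations from each table's mean in the 18 libraries, among 11054 genes past the filter in all tables. They were Arhgef25 (0.95), Nxn (0.93) and Tnfrsf19 (0.92), the last of which is on the list of reported targets and rose in Kdm2b hippocampi by 0.48 (adjusted p = 0.00282). For Lef1, which is under the filter in cortices, the same measure over the 14 other libraries and 11396 genes gave Pth1r (0.98), Scarf2 (0.98) and Ltbp4 (0.97), a choice made after the data were seen. The libraries share their tables and genotypes, so these values describe likeness and have no p.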

How the data were processed

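Poly(A) RNA of mouse tissue and cultures was sequenced in read pairs, and the authors deposited FPKM values per gene. By the study's methods, hippocampal and neurosphere reads were trimmed with cutadapt and aligned to mm10 with STAR, and FPKM came from Cufflinks 2.2.1. The submitters' processing notes name the same tools for all libraries; which steps gave the cortical and Rnf2 values, whose tables have another form, is not given in the sources used here. The authors' own calls used DESeq2 on counts, which are not used here. FPKM times gene length gave whole reads (within 0.02 reads, for values up to 1000 reads) in 100% of cortical and Rnf2 values.

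Groups were taken from the labels. Entries naming no gene were left out, and the highest-mean entry was kept per name. Each table was fitted by itself with limma 3.58.1 in R 4.3.3 (eBayes with a trend) on log2(FPKM + 1), after a filter at 0.5 FPKM, and interactions were fitted over 2 tables at a time. Named were all 10 genes, the targeted genes, Cep112, the largest rise and fall among called genes per pathway list and comparison, and the 3 genes most like Axin2 and Lef1. The genes, pathway lists and markers were chosen with earlier results of these data known. The functions were tested on simulated data. Alternatives were a pseudocount of 0.1, no filter, a filter at 1 FPKM, both rescalings, no trend, a replicate block, adjusted p only, dropping the threshold on fold change, limma-voom on recovered reads, summed entries, and each library left out, where a lone library was assumed to vary like the others. Upstream sequences are RefSeq's (GRCm38.p6), and deposited positions of 9 of the 10 genes equal those of GENCODE vM21 on GRCm38.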

Additional observations from a re-analysis of the deposited data

Results flagged for a closer look

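The changes of 7 gene and table pairs differed from those in Kdm2b hippocampi by the interaction test. In neurospheres the difference of log2 fold changes was 0.83 for Tcf7, -1.16 for Tcf7l2, -0.59 for Axin2, 0.69 for Nkd2 and -1.39 for Rnf43. In cortices it was 0.69 for Tcf7, and in Rnf2 hippocampi it was -1.09 for Lef1. Nkd2 passed the filter in neurospheres only through the cKO cultures. No explanation was tested. Groups of 2 or 3 libraries are too small for a test of single libraries that stand apart.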

How the results depend on the processing

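Counts of called genes moved by more than 1.5 times when the rule itself changed. With no fold change threshold 3090 genes were called in hippocampi (826 with it), 4669 in neurospheres (3012), 2013 in cortices (1100) and 1121 in Rnf2 hippocampi (742), and 7 of the 10 genes in hippocampi. With adjusted p values, limma called 2 of the 10 in hippocampi, 0 of the 10 and 67 genes in cortices, and 0 of the 10 and 0 genes in Rnf2 hippocampi. Axin2 in neurospheres went to 0.0679 with libraries rescaled to the same FPKM total, against -0.04 as deposited. The difference for Lef1 between neurospheres and hippocampi went from -0.0048 to 0.93 with a pseudocount of 0.1, to 0.0481 with that rescaling and to 0.0046 with median-ratio scaling. Between cortices and hippocampi 2 of the 10 genes differed with a pseudocount of 0.1, 0 with that rescaling and 0 with the replicate number as a block, against 1 (Tcf7). The causes of these changes were not tested.

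Leaving out each library in turn gave 2 to 4 of the 10 genes called in hippocampi (2 without cKO replicate 2, where Tcf7l2 and Nkd1 were lost) and 0 to 1 in Rnf2 hippocampi. It gave 1015 to 1667 genes in cortices (most without control replicate 1) and 468 to 1580 in Rnf2 hippocampi (least without cKO replicate 2, most without control replicate 2). From 0 to 2 of the 10 genes then differed between cortices and hippocampi, and 0 to 1 between Rnf2 and Kdm2b hippocampi. Fold changes that changed sign were not called: Tcf7l1 in hippocampi ran from -0.19 to 0.0892, Axin2 in neurospheres from -0.19 to 0.11, and in Rnf2 hippocampi Lef1 from -0.0027 to 0.20, Tcf7 from -0.0791 to 0.10, Tcf7l1 from -0.19 to 0.20 and Rnf43 from -0.34 to 0.0438. Among the differences from hippocampi, in neurospheres Lef1 ran from -0.17 to 0.16 and Nkd1 from -0.0041 to 0.33, in cortices Nkd1 ran from -0.0731 to 0.22, and in Rnf2 hippocampi Nkd1 ran from -0.17 to 0.23, Tcf7l1 from -0.12 to 0.26 and Znrf3 from -0.0836 to 0.0137.

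Replicate numbers gave correlations of same-numbered libraries between -0.10 and 0.05 in hippocampi, -0.28 in neurospheres, -0.05 in cortices and 0.16 in Rnf2 hippocampi. The labels tie no number to a shared litter or day, and with 2 libraries a group these correlations cannot decide the pairing. As a block they gave 831, 2993, 1197 and 989 called genes and 4, 8, 3 and 1 of the 10 in hippocampi, neurospheres, cortices and Rnf2 hippocampi. Crossing the neurosphere numbers, chosen after seeing the data, gave 3084 genes and 8 of the 10. On recovered reads limma-voom called 1459 genes and 4 of the 10 in cortices, and 756 and 1 in Rnf2 hippocampi. Summing entries per name changed nothing, since each of the 10 genes had a single entry. Over the single-gene values, 875 of the alternatives kept the direction and the side of the threshold, 33 lost the call, 10 gained it and 33 changed sign. The 875 include settings that could not have changed a value, such as summed entries, and genes uncalled throughout. The adjusted p and dropped threshold settings reuse the fold changes and could not change a sign. This tally is therefore no measure of how firm the calls are. With 2 or 3 libraries a group, small differences of genes with few reads, such as Lgr5 and Rnf43 in cortices, cannot be resolved.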
